A study of Mus musculus with 13 samples.

Results

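The collagen hydroxylation and crosslinking enzymes described here are 10 mouse genes, chosen by name and matched to the Ensembl identifiers of the deposited count tables: P4ha1, P4ha2, Plod1, Plod2, Plod3, Serpinh1, Lox, Loxl1, Loxl2 and Loxl3. All 10 were found among the 42416 identifiers counted, and all 10 passed the filter on low counts, which kept 13360 genes above 1 CPM (reads of a gene scaled to a common library size, the unit of abundance used here) in 5 or more libraries. Bulk RNA sequencing was performed on interscapular brown adipose tissue (iBAT) of mice fed a high-fat diet (HFD) ad libitum at room temperature. The 5 libraries labelled WT came from mice with floxed Axl and no Cre, and the 8 labelled iFAXLKO from mice with floxed Axl and Cre, so that loxP sites at Axl, the diet and tamoxifen every 3 weeks were common to both groups. According to the methods, the Cre was CreERT2, a recombinase that needs tamoxifen, expressed from an adiponectin (Adipoq) bacterial artificial chromosome in adipocytes, which leaves Axl in the other cells of the depot, and the mice of the tissue-specific knockout were female. The methods describe adult mice whose HFD began in early adulthood, and no source used here ties an age at dissection to these libraries. The comparison asks how the iBAT transcriptome differed between these groups under HFD.

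Collagen chains are modified in the endoplasmic reticulum before they leave the cell. Prolyl 4-hydroxylases make 4-hydroxyproline, which stabilises the collagen helix, lysyl hydroxylases (the Plod enzymes) hydroxylate lysines that later take part in crosslinks, and HSP47, the product of Serpinh1, is a chaperone that binds folded procollagen. Outside the cell, lysyl oxidase and its relatives (Lox and the Loxl enzymes) oxidise lysines of collagen and elastin so that fibres are joined covalently. The hydroxylases need oxygen, iron and 2-oxoglutarate, and several of their genes are known targets of hypoxia-inducible factors. In adipose tissue, fibroblasts, vascular cells and adipocytes all add to this matrix.

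The libraries held between 22437277 and 32595083 counted reads each, and mitochondrially encoded genes took 18.3 to 21.3% of them. Of all genes tested, 17 of 13360 (0.127%) passed an adjusted p of 0.05 (edgeR quasi-likelihood test, Benjamini-Hochberg over all genes tested), of which 13 (0.0973%) had the higher mean in the libraries labelled iFAXLKO and 4 (0.0299%) the lower. Brown adipocyte markers were abundant throughout, with Ucp1 between 4030 and 7894 CPM. Axl, the targeted gene, went against the label. It was 33.1 ± 6.16 CPM (SD, n = 8) in the libraries labelled iFAXLKO and 27.8 ± 3.82 CPM (SD, n = 5) in WT, with 6 of 8 above the WT mean. On the log2 scale the difference was 0.25 ± 0.13 (SE, adjusted p = 0.699 by edgeR, exact permutation p = 0.102, 2-sided). Counts per gene do not show whether the floxed exons were removed, and Axl is also expressed by cells in which the Cre is silent, so every direction given here is between libraries by their labels. Skeletal muscle markers summed to between 2.63 and 4556 CPM across the 13 libraries and overlapped between the groups.

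None of the 10 enzymes passed the adjusted limit, against 0.127% of all genes. At an unadjusted p under 0.05 there was 1 of 10, Loxl3, against 986 of 13360 genes (7.38%), made up of 513 higher, like Loxl3 (3.84%), and 473 lower (3.54%). The log2 fold change was above 0 for 4 members and below 0 for 6, with a median of -0.060, beside 46.4% above 0 and a median of -0.012 over all genes. The CPM ranges of the groups overlapped for all 10, while they were apart for 58 genes (0.434%). DESeq2 and limma-voom with sample quality weights called 0 members after adjustment as well, and 2 each at an unadjusted p under 0.05.

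**Figure D1:**
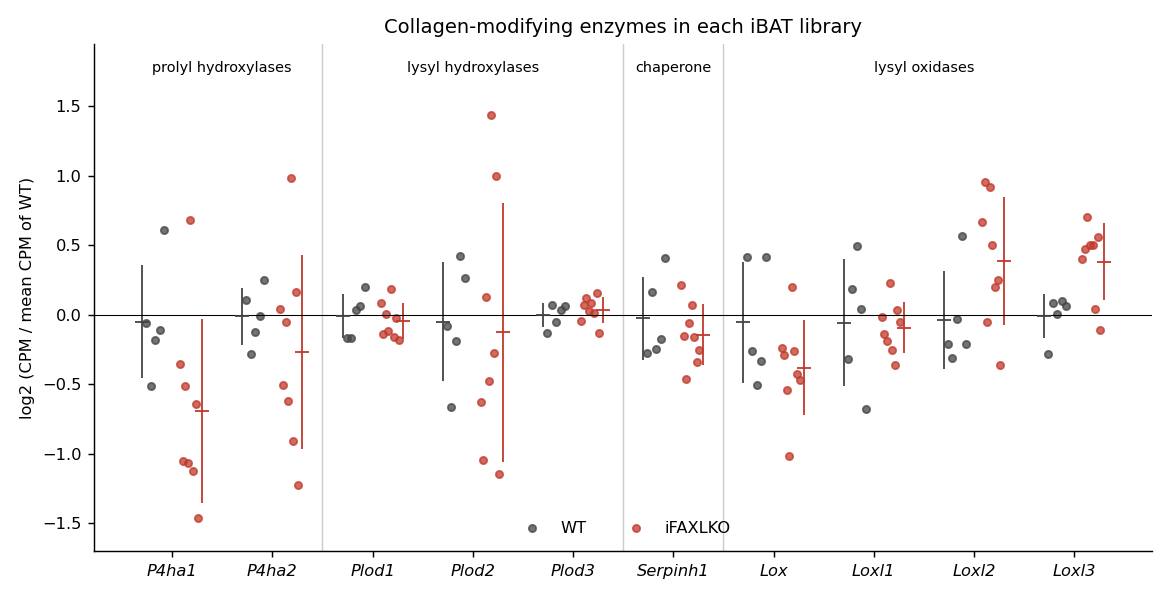
Level of each enzyme in each iBAT library as log2 of CPM over the mean CPM of WT (vertical axis), grouped by role, with WT in grey (n = 5) and libraries labelled iFAXLKO in red (n = 8). Points are libraries, and the bar beside them is the mean ± SD. P4ha1, P4ha2 and Plod2 spread widely, each with iFAXLKO replicate 5 at the top, while Plod1 and Plod3 stay close to 0 in all 13 libraries.

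Compared per length, as CPM per kilobase of merged exons (RPKM), the chaperone transcript stood far above the enzymes. In WT, Serpinh1 was at 165 ± 35.7 RPKM (SD, n = 5), followed by P4ha1 at 27.4 ± 8.53, Plod1 at 17.02 ± 1.87, Plod3 at 10.7 ± 0.634 and Loxl1 at 10.4 ± 3.15. Lower in the order were Lox at 5.64 ± 1.73 RPKM, P4ha2 at 3.32 ± 0.466, Plod2 at 1.85 ± 0.519, Loxl2 at 1.64 ± 0.456 and Loxl3 at 0.597 ± 0.0613. In the libraries labelled iFAXLKO (n = 8) the order was the same except that Loxl2, at 2.24 ± 0.692 RPKM, stood above Plod2, at 2.07 ± 1.504. The libraries of P4ha1 and Plod1 overlapped within both groups, as did those of Plod3 and Loxl1 and of Plod2 and Loxl2. Within single libraries, P4ha1 was above Plod1 in 5 of 5 WT libraries and in 4 of 8 of the others. Plod3 was above Loxl1 in 3 of 5 and 6 of 8, and Plod2 above Loxl2 in 4 of 5 and 3 of 8, so these 2 pairs of neighbours did not differ beyond their spread in either group. Serpinh1 against P4ha1, Plod1 against Plod3 and Loxl2 against Loxl3 did not overlap in either group. Loxl1 lay above Lox without overlap in the libraries labelled iFAXLKO alone, whereas Lox above P4ha2 and P4ha2 above Plod2 did not overlap in WT alone.

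**Figure D2:**
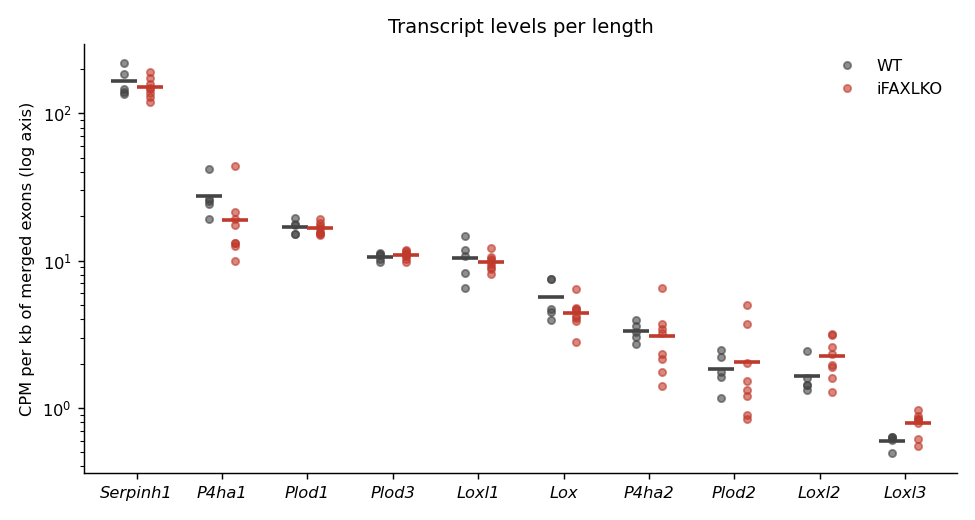
Transcript level per length (CPM per kilobase of merged exons, log axis) of each enzyme, in falling order of the WT mean, with WT in grey (n = 5) and libraries labelled iFAXLKO in red (n = 8). Points are libraries and horizontal bars are group means, which run from 165 for Serpinh1 to 0.597 for Loxl3 in WT.

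P4ha1 and P4ha2 encode alternative catalytic subunits of collagen prolyl 4-hydroxylase. P4ha1 (ENSMUSG00000019916, chromosome 10, 59323296 to 59373304, plus strand, GRCm38) was at 109, 79.3, 99.6, 105 and 172 CPM in WT replicates 1 to 5. In the libraries labelled iFAXLKO its lowest value was 41.0 CPM, the median 63.3 and the highest 181. Of these 8 libraries, 6 lay below the lowest WT value and 1, replicate 5, lay above the highest. The remaining library, replicate 1 at 88.4 CPM, lay inside the WT range, so that the ranges overlapped. The means were 77.8 ± 44.8 CPM (SD, n = 8) and 113 ± 35.1 (SD, n = 5), with a difference of -0.54 ± 0.33 (SE) on the log2 scale (edgeR adjusted p = 0.753, exact permutation p = 0.0831). The value rested on single libraries in both groups. Without iFAXLKO replicate 5 it was -0.84 (edgeR unadjusted p = 0.00111, adjusted p = 0.170), and without WT replicate 5, the highest of the controls, it was -0.33 (adjusted p = 0.958).

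P4ha2 (ENSMUSG00000018906, chromosome 11, 54100095 to 54131665, plus strand) was at 22.3, 17.04, 19.0, 20.6 and 24.6 CPM in WT. The libraries labelled iFAXLKO ran from 8.84 through a median of 17.3 to 40.9 CPM, with 4 below the lowest WT library and replicate 5 again above all others. The means were 19.2 ± 10.1 CPM (SD, n = 8) and 20.7 ± 2.91 CPM (SD, n = 5), nearly equal but with a wider spread in the former. The difference came to -0.11 ± 0.30 (SE) on the log2 scale (edgeR adjusted p = 0.974), and to -0.37 without iFAXLKO replicate 5 and -0.0038 without iFAXLKO replicate 8, the lowest library.

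Across libraries, these subunits varied together more closely than any other pair of members. With group means subtracted from log2 CPM, P4ha1 and P4ha2 gave Pearson's r = 0.94 over the 13 libraries (permutation p = 1e-05, the smallest that 100000 permutations can give, adjusted p = 0.00045 over 45 pairs) and Spearman's rho = 0.95 (permutation p = 1e-05). Leaving out the 2 libraries with the most extreme P4ha1 gave r = 0.93. The labels number the libraries, and these numbers were divided here into a lower range of 6 and an upper range of 7. The lower numbers are consecutive, while the upper ones have gaps among themselves. The division was therefore a choice and is not given by the labels. The value of r was 0.98 within the lower and 0.94 within the upper range. Leaving out each library in turn gave r between 0.87 and 0.96. The pairs were examined after the data had been seen, and the share of all gene pairs with such an r was not counted. P4ha1 was closer still to Chordc1, a gene outside the set (r = 0.97).

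The 250 bases upstream of the RefSeq transcription starts of P4ha1 and P4ha2 are shown (GRCm38.p6). They lie at chr10:59323046-59323295 for P4ha1 and chr11:54100674-54100923 for P4ha2, each on the plus strand. Capitals mark ACGTG, the core letters of the hypoxia response element, on either strand (written CACGT where it lies on the strand opposite to the gene).
P4ha1 upstream: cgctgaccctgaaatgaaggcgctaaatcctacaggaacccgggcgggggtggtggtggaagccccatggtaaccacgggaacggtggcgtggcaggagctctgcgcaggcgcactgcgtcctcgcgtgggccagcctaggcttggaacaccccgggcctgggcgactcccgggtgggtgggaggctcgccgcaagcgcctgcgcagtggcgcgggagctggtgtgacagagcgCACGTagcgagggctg
P4ha2 upstream: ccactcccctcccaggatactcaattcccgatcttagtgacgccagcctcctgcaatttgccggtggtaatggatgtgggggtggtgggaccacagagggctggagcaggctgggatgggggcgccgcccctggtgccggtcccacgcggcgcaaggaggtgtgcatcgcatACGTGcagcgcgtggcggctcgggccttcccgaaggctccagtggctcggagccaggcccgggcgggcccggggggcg
In P4ha1 the match begins 16 bases before the start and is on the opposite strand. In P4ha2 it begins 78 bases before the start. The P4ha2 window lies within the longer GENCODE gene model and in no exon of it. Promoters of 5 members were matched in the RefSeq table, and the same letters were found upstream of Plod3 (54 bases before the start) and Serpinh1 (171 bases, opposite strand) and not of Plod1. In all, 4 of these 5 held a match, beside 5444 of 32851 promoters of the table (16.6%) searched over the same 250 bases. Lox, Loxl1, Loxl2, Loxl3 and Plod2 had no promoter in it. Across libraries, r with P4ha1 was 0.86 for Plod1, which had no match. It was 0.94 for P4ha2, 0.41 for Serpinh1 and 0.35 for Plod3, each with a match. A match of 5 letters is a description of the sequence and not of binding. Of 11 hypoxia-response genes listed as context, 10 passed the filter, none at an unadjusted p under 0.05 by edgeR. Of these 10, 8 had a log2 fold change below 0 and 2 above, beside 46.4% of all genes above 0. Their summed level was 1588 to 2150 CPM in the libraries labelled iFAXLKO and 1777 to 2155 CPM in WT, and their part in the prolyl hydroxylase values was not tested.

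**Figure D3:**
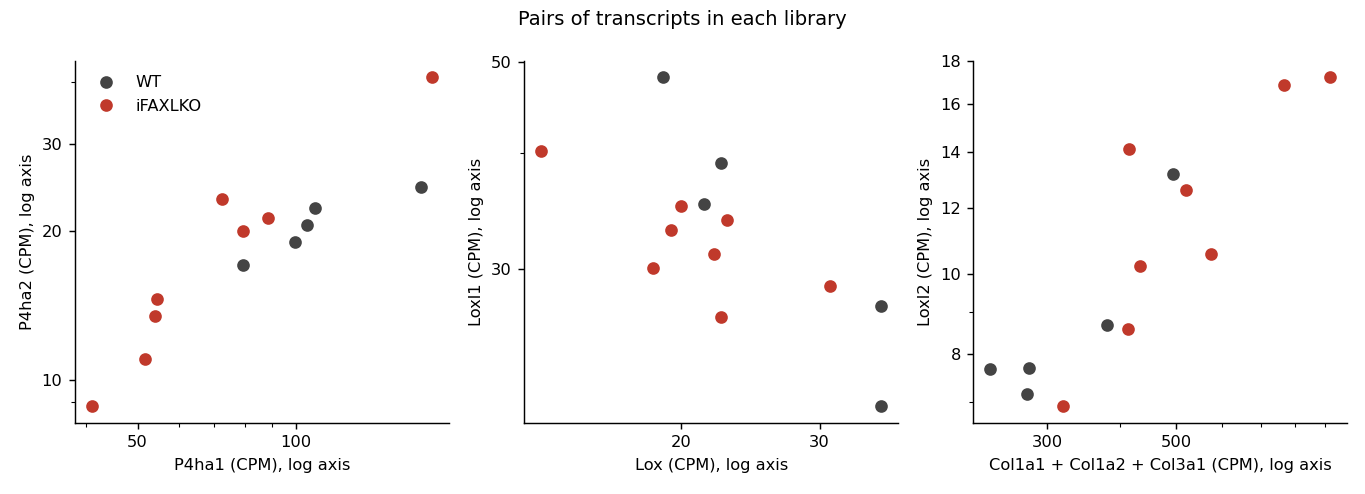
CPM of P4ha2 against P4ha1, of Loxl1 against Lox, and of Loxl2 against the summed collagen transcripts Col1a1, Col1a2 and Col3a1, in each library (log axes), with WT in grey and libraries labelled iFAXLKO in red. P4ha1 and P4ha2 lie along a rising line (r = 0.94 after group means were subtracted), Lox and Loxl1 along a falling one (r = -0.82), and Loxl2 rises with the collagens (r = 0.84).

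The lysyl hydroxylases covered both the steadiest and the most variable transcripts of the set. Plod1 (ENSMUSG00000019055, chromosome 4, 147909753 to 147936767, minus strand) hydroxylates lysines of the helical part of collagen. It was at 102, 102, 118, 120 and 132 CPM in WT, and between 101 and 130 CPM with a median of 109 in the libraries labelled iFAXLKO. The groups lay over each other, with a log2 fold change of -0.038 ± 0.085 (SE, edgeR adjusted p = 0.968), for which 2 SE span -0.21 to 0.13. Plod3 (ENSMUSG00000004846, chromosome 5, 136987019 to 136996648, plus strand), which also has glycosyltransferase activity, was at 44.1, 50.7, 46.5, 49.4 and 50.5 CPM in WT and at 44.1 to 53.7 CPM (median 49.9) in the other group. Its highest library was 1.22 times its lowest over all 13, the smallest ratio among the members. Between the groups the log2 fold change was 0.040 ± 0.065 (SE, edgeR adjusted p = 0.947), for which 2 SE span -0.091 to 0.17. Plod3 overlaps the neighbouring gene Znhit1 (28.6 to 50.9 CPM) over 1003 bases on the opposite strand, and since a strand setting in the counting is not given in the sources used here, part of its reads could belong to that gene.

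Plod2 (ENSMUSG00000032374, chromosome 9, 92542223 to 92608428, plus strand) hydroxylates the telopeptide lysines that give rise to the more stable pyridinoline crosslinks. It was at 9.43, 6.30, 8.74, 13.4 and 12.0 CPM in WT. The libraries labelled iFAXLKO ran from 4.498 through a median of 7.71 to 27.0 CPM, with 2 above and 2 below every WT library. The 2 high libraries were replicate 5 at 27.0 CPM and replicate 7 at 19.95 CPM. Its highest library was 6.01 times its lowest, the largest ratio among the members. Its log2 fold change of 0.16 ± 0.44 (SE, edgeR adjusted p = 0.975) was -0.17 without iFAXLKO replicate 5 and -0.014 without iFAXLKO replicate 7.

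Plod1 and Plod2 varied with the prolyl hydroxylases from library to library. P4ha1 with Plod1 gave r = 0.86 (permutation p = 8e-05, adjusted p = 0.0018) and rho = 0.79 (permutation p = 0.0021), with r = 0.76 when the 2 farthest libraries were left out and 0.79 and 0.93 within the lower and the upper library numbers. P4ha2 with Plod2 gave r = 0.82 (permutation p = 0.00069, adjusted p = 0.00934) and rho = 0.74 (permutation p = 0.00573), with 0.57 when the 2 farthest libraries were left out and 0.55 and 0.95 within the library numbers. P4ha2 with Plod1 had r = 0.76 (permutation p = 0.00154, adjusted p = 0.0115) and rho = 0.69 (permutation p = 0.0108), and P4ha1 with Plod2 had r = 0.77 (permutation p = 0.0024, adjusted p = 0.0154) and rho = 0.73 (permutation p = 0.00666). Without the 2 farthest libraries, r was 0.63 and 0.57 in the same order. The permutation p of rho adjusted over 45 pairs was 0.0694 for P4ha2 with Plod1, not past the limit. It was 0.0236 for P4ha1 with Plod1 and 0.04995 for both P4ha2 and P4ha1 with Plod2. The relations that include Plod2, and that of P4ha2 with Plod1, rested on iFAXLKO replicate 5, the library highest in P4ha1, P4ha2 and Plod2. Without it, P4ha2 with Plod2 had r = 0.67, P4ha1 with Plod2 0.56 and P4ha2 with Plod1 0.65, none of them past an adjusted p of 0.05, and P4ha1 with Plod2 was at 0.72 and also not past it without iFAXLKO replicate 8. iFAXLKO replicate 5 also held the largest sum of skeletal muscle markers, 4556 CPM, and WT replicate 5, the other library high in P4ha1, held 17.9 CPM. The summed hypoxia-response genes were at 2150 and 2155 CPM in these libraries, the highest of their groups. WT replicates 1, 3 and 4 were near, at 2115, 2077 and 2071 CPM. The part of muscle or of hypoxia in these values was not tested.

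Serpinh1 (ENSMUSG00000070436, chromosome 7, 99345376 to 99353239, minus strand) was the most abundant member, with 6783 to 12890 reads a library. It was at 333, 451, 339, 357 and 534 CPM in WT. In the libraries labelled iFAXLKO it ran from 293 through 361 to 467 CPM, with 2 libraries below every WT library and none above the highest. The means were 369 ± 56.7 CPM (SD, n = 8) and 403 ± 87.2 CPM (SD, n = 5). The log2 fold change was -0.13 ± 0.13 (SE, edgeR adjusted p = 0.897, exact permutation p = 0.432). Without WT replicate 5, which was the highest, the log2 fold change was -0.0053. None of the 9 pairs of Serpinh1 with another member passed the adjusted limit, with r between -0.31 and 0.42.

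The lysyl oxidases were divided in direction, with Lox and Loxl1 lower and Loxl2 and Loxl3 higher on average in the libraries labelled iFAXLKO, none of them past the adjusted limit. Lox (ENSMUSG00000024529, chromosome 18, 52516067 to 52529867, minus strand), which encodes the founding lysyl oxidase, was at 35.9, 22.5, 19.0, 21.4 and 35.9 CPM in WT. The other group ran from 13.3 through 21.02 to 30.9 CPM, with 1 of 8 above the WT mean. The WT libraries themselves fell apart, replicates 1 and 5 being well above the other 3. A log2 fold change of -0.35 ± 0.19 (SE) was found (edgeR adjusted p = 0.724, exact permutation p = 0.164), and the difference of means of log2 CPM was -0.60 within the lower library numbers and -0.10 within the upper ones. The fold change was -0.22 without WT replicate 1. It was -0.44 without iFAXLKO replicate 5 (edgeR unadjusted p = 0.0233, adjusted p = 0.468) and -0.44 without WT replicate 3 (edgeR unadjusted p = 0.0386, adjusted p = 0.680).

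Loxl1 (ENSMUSG00000032334, chromosome 9, 58287738 to 58313186, minus strand), known for its part in elastic fibre assembly, was at 27.4, 39.0, 48.2, 35.3 and 21.4 CPM in WT. All 8 libraries labelled iFAXLKO lay inside the WT range, between 26.7 and 40.2 CPM with a median of 32.1. The log2 fold change of -0.082 ± 0.16 (SE, edgeR adjusted p = 0.958) turned to 0.091 without WT replicate 3. Across libraries, Loxl1 was low where Lox was high. Their r was -0.82 (permutation p = 0.00083, adjusted p = 0.00934 over 45 pairs) and rho -0.81 (permutation p = 0.00139), with -0.86 when the 2 most extreme libraries in Lox were left out and -0.84 within both the lower and the upper library numbers. Leaving out each library in turn gave r between -0.85 and -0.78. Without subtraction of the group means r was -0.71 and its adjusted p 0.0519. Elastin (Eln), a substrate of both, had a log2 fold change of 0.13 ± 0.20 (SE, edgeR adjusted p = 0.945).

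Loxl2 (ENSMUSG00000034205, chromosome 14, 69609068 to 69695834, plus strand), which crosslinks collagen of fibrils and of basement membranes, was at 7.69, 7.17, 8.68, 13.2 and 7.67 CPM in WT, where replicate 4 stood apart. In the libraries labelled iFAXLKO it was lowest at 6.93, with a median of 11.6 and a highest value of 17.2 CPM. Of these, 3 lay above every WT library, 1 below, and 6 above the WT mean. The means were 12.1 ± 3.74 CPM (SD, n = 8) and 8.88 ± 2.46 CPM (SD, n = 5). On the log2 scale the difference was 0.45 ± 0.22 (SE, edgeR adjusted p = 0.689, exact permutation p = 0.106). The difference of means of log2 CPM was 0.88 within the lower library numbers and 0.040 within the upper ones, and the fold change without WT replicate 4 was 0.64.

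Loxl3 (ENSMUSG00000000693, chromosome 6, 83034173 to 83052562, plus strand), the least abundant member with 64 to 128 reads a library, was at 2.26, 2.91, 2.77, 2.94 and 2.87 CPM in WT. The libraries labelled iFAXLKO ran from 2.55 through 3.85 to 4.49 CPM, with 6 of 8 above every WT library and 2, replicates 6 and 8, inside the WT range. With a log2 fold change of 0.41 ± 0.15 (SE), Loxl3 was the member with the smallest p (edgeR unadjusted p = 0.0133, adjusted p = 0.517, exact permutation p = 0.0155). It lay between 0.34 and 0.47 with each library left out in turn, and the difference of means of log2 CPM was 0.61 within the lower library numbers and 0.19 within the upper ones. The controls of the lower numbers were WT replicates 1 and 2 alone, and replicate 1 was the lowest control at 2.26 CPM. Loxl3 overlaps Htra2, at 33.4 to 47.0 CPM a far more abundant gene, over 1297 bases on the opposite strand, so that its few reads cannot be assigned with certainty. Loxl3 and Plod3 gave r = 0.82 (permutation p = 0.00105, adjusted p = 0.00945) and rho = 0.81 (permutation p = 0.00108) over 13 libraries, with 0.82 without the 2 farthest and 0.86 within both ranges of library numbers. It was 0.70, and not past the adjusted limit, without iFAXLKO replicate 8. Both of these genes share bases with an opposite-strand neighbour.

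**Figure D4:**
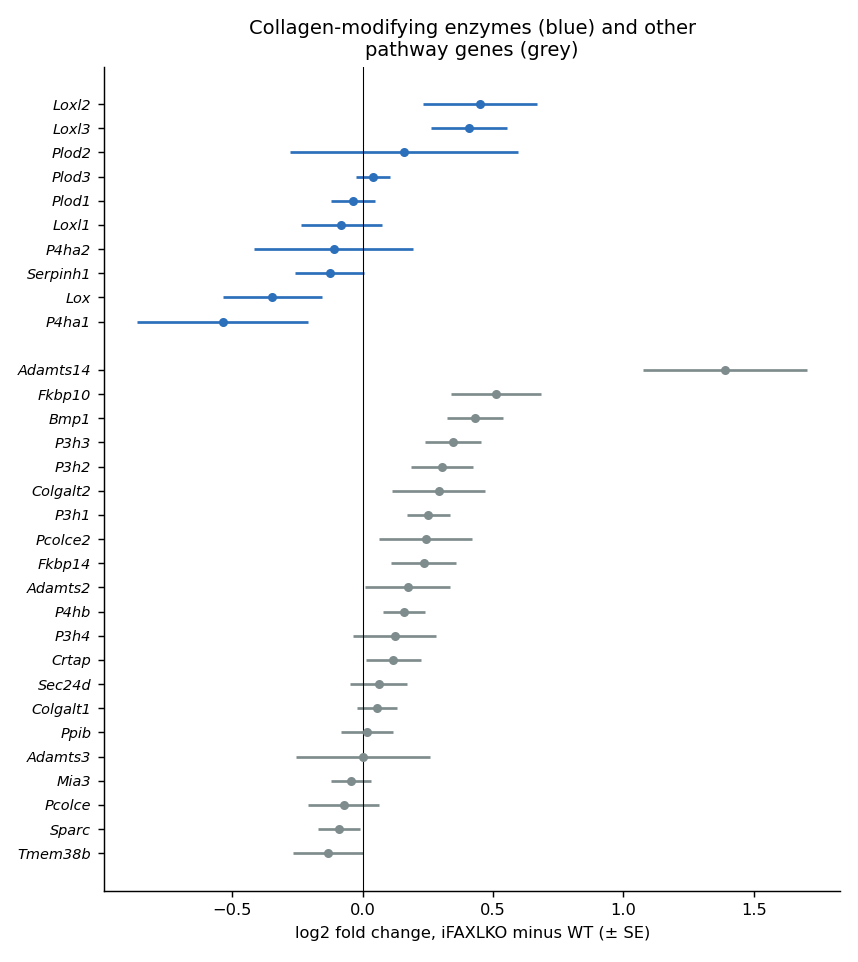
Log2 fold change, libraries labelled iFAXLKO minus WT, with its SE (horizontal axis), of the 10 enzymes in blue and of the 21 other pathway genes tested in grey. The enzymes lie on both sides of 0, from -0.54 for P4ha1 to 0.45 for Loxl2, and 16 of the 21 other genes lie above 0, with Adamts14 at 1.39. Adamts14 passed the filter on low counts only through the libraries labelled iFAXLKO.

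The substrates of these enzymes, the fibrillar collagens Col1a1, Col1a2 and Col3a1, had log2 fold changes of 0.73 (SE 0.29), 0.66 (SE 0.23) and 0.71 (SE 0.26), all at an unadjusted edgeR p under 0.05 and none past the adjusted limit (lowest adjusted p = 0.512). Their sum was 279, 277, 380, 494 and 240 CPM in WT and 320 to 919 CPM (median 477) in the libraries labelled iFAXLKO. Of the 10 enzymes, Loxl2 alone followed the collagens beyond the adjusted limit, which covers these 10 relations. How many of all genes tested follow the collagens as closely was not counted, so the relation is not shown to be particular to Loxl2. With group means subtracted, Loxl2 and the collagen score (mean log2 CPM of the 3 genes) gave r = 0.84 (permutation p = 0.00032, adjusted p = 0.0032 over 10 relations) and rho = 0.77 (permutation p = 0.00294). It was 0.80 among the lower and 0.89 among the upper library numbers, and 0.79 to 0.94 with each library left out. Leaving out the 2 libraries with the most extreme collagen score gave r = 0.73, with an adjusted p of 0.108, so that passing the limit rested on those libraries. With the collagen score as a covariate, the log2 fold change of Loxl2 was -0.050 and that of Loxl3 0.26. The collagens themselves had the higher mean in the libraries labelled iFAXLKO, so the score and the label cannot be told apart in this fit. The other 9 relations with the collagen score ran from r = -0.38 for Lox to 0.46 for Loxl3, none with an adjusted p below 0.503. For P4ha1, P4ha2 and Plod2 the sign differed between the library numbers, at -0.64, -0.72 and -0.58 in the lower and 0.19, 0.43 and 0.54 in the upper range.

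**Figure D5:**
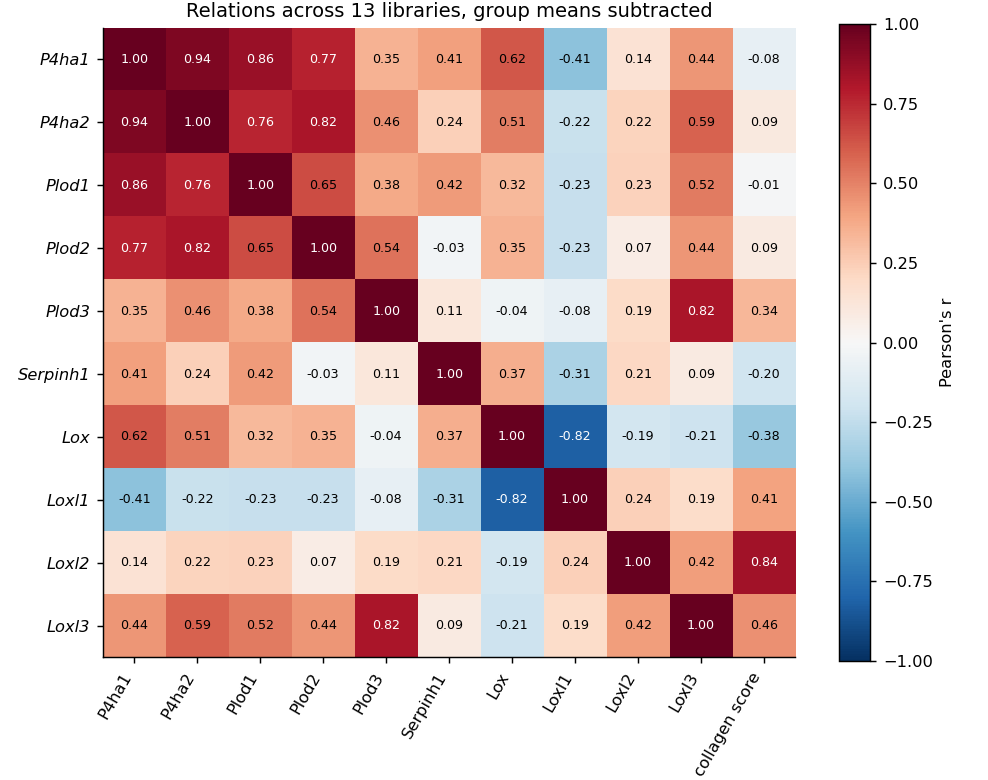
Pearson's r (colour and number) between each pair of enzymes and, in the last column, between each enzyme and the fibrillar collagen score, on log2 CPM with group means subtracted over 13 libraries. P4ha1, P4ha2, Plod1 and Plod2 form a block of positive values from 0.65 to 0.94, Lox and Loxl1 are opposed at -0.82, and Loxl2 stands out in the collagen column at 0.84.

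Reads of each enzyme were also set against those of the 3 collagens, as a description with no test, because this denominator was chosen after its own higher mean in the libraries labelled iFAXLKO had been seen, which lowers all 10 ratios. For 1000 collagen reads, P4ha1 had a mean of 157 reads in the libraries labelled iFAXLKO, from 59.2 through 127 to 349, and of 374 in WT, from 212 through 286.9 to 719. The log2 difference was -1.32 (SE 0.43) for P4ha1 and lay between -1.005 for Lox and -0.25 for Loxl2 among the other 9. Loxl2 and Loxl3 (-0.29) had the smallest differences of the set. Without the denominator, P4ha1 differed by -0.54 on the log2 scale and did not pass the adjusted limit.

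Of 24 other genes of collagen folding and processing, 21 passed the filter, and P4ha3, Loxl4 and Tll1 did not, with at most 0.564 CPM in any library. None passed the adjusted limit by edgeR, 16 had a log2 fold change above 0 (beside 46.4% of all genes) and 5 below, and the median was 0.16, beside -0.012 over all genes. At an unadjusted p under 0.05 there were 6, all higher, beside 7.38% of all genes in either direction and 3.84% higher, and all 6 lay above the WT mean in 8 of 8 libraries with overlapping ranges. Adamts14, a procollagen N-proteinase, averaged 1.20 ± 0.493 CPM (SD) in the 8 libraries labelled iFAXLKO and 0.461 ± 0.115 CPM in the 5 WT libraries, differing by 1.39 ± 0.32 (SE) on the log2 scale (edgeR adjusted p = 0.193). With 10 to 50 reads a library and at most 0.611 CPM in WT, it passed the filter only through the libraries labelled iFAXLKO. Its p-values and its place among these 6 are therefore a description and no support for a difference. Bmp1, the procollagen C-proteinase that also activates lysyl oxidase, averaged 23.0 ± 2.98 CPM (SD) and 17.1 ± 2.62 CPM in the same order, differing by 0.43 ± 0.11 (SE) on the log2 scale (edgeR adjusted p = 0.310). Both passed an adjusted p of 0.05 with DESeq2 (0.0166 and 0.0433), and limma-voom with sample quality weights called neither (0.220 and 0.256).

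The remaining 4 act in the endoplasmic reticulum. The prolyl 3-hydroxylases P3h1, P3h2 and P3h3, which modify prolines at a different position from P4ha1 and P4ha2, had log2 fold changes of 0.25 (SE 0.081), 0.30 (SE 0.12) and 0.35 (SE 0.11), with edgeR adjusted p-values of 0.490, 0.573 and 0.462. Fkbp10, a chaperone that works with the telopeptide lysyl hydroxylase, had 0.51 (SE 0.17, edgeR adjusted p = 0.507). P4hb, the shared β subunit of the prolyl 4-hydroxylase, averaged 87.7 ± 7.06 CPM (SD) in the libraries labelled iFAXLKO and 78.7 ± 8.69 CPM in WT, which is 0.16 ± 0.081 (SE) on the log2 scale (edgeR adjusted p = 0.707), beside -0.54 for P4ha1 and -0.11 for P4ha2.

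Markers of other cell types also differed in mean level between the groups, none past the adjusted limit. Of 10 fibroblast markers 9 passed the filter, all 9 with a log2 fold change above 0 and 7 at an unadjusted edgeR p under 0.05. Pdgfrl, the marker that did not pass, was below 1 CPM in every library. Their sum was 1221 to 1537 CPM in the libraries labelled iFAXLKO and 903 to 1281 CPM in WT. All 6 macrophage markers were higher at an unadjusted edgeR p under 0.05, with sums of 79.3 to 141 and 64.6 to 94.3 CPM. Of 10 brown adipocyte markers 9 were lower in log2 fold change and 1 passed an unadjusted p of 0.05, with sums of 15722 to 20643 and 17516 to 26472 CPM. Of all genes, 46.4% were above 0 in log2 fold change, and 3.84% were higher and 3.54% lower at that unadjusted limit. Above 0 were also 6 of 7 endothelial and all 6 smooth muscle and pericyte markers, with 0 of either at that limit. Of 6 Schwann cell markers 5 were above 0, with 2 at that limit. Of 10 skeletal muscle markers 9 were below 0, with 0 at it. In a whole depot, fewer cells of a type and less RNA per cell cannot be told apart. With the fibroblast marker score as a covariate, the log2 fold change was 0.18 for Loxl2, 0.23 for Loxl3, -0.25 for P4ha1 and -0.14 for Lox, each closer to 0 than without it, and 0 members were at an unadjusted p under 0.05. Plod1 (0.012), Plod2 (-0.12) and Plod3 (-0.033) changed sign with it. The fibroblast markers themselves had the higher mean level in the libraries labelled iFAXLKO, so the score and the label cannot be told apart here.

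The transcript most like each member, by r of log2 CPM with group means subtracted over the 13 libraries and 12349 protein-coding genes, is given as a description. For the prolyl hydroxylases it was Chordc1 for P4ha1 (r = 0.97) and Maff for P4ha2 (r = 0.94). For the lysyl hydroxylases it was Stat6 for Plod1 (r = 0.90), Ppp1r13l for Plod2 (r = 0.92) and Kifc5b for Plod3 (r = 0.89), and for Serpinh1 it was Fkbp4 (r = 0.94). For the lysyl oxidases it was Ubqln1 for Lox (r = 0.96), Dhrs11 for Loxl1 (r = 0.89), Col5a3, a collagen gene, for Loxl2 (r = 0.93) and Rps6kb2 for Loxl3 (r = 0.90). The highest of 12349 values is large by selection.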

How the data were processed

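Raw read counts per Ensembl gene, as deposited by the authors, were joined over 13 libraries, 1 per replicate sample. P-values measure the spread between these samples. The submitters' processing notes name bcl2fastq 2.20, fastp 0.20.0, STAR 2.7.4a, DESeq2 and GRCm38.p6, while the study's methods name Trim Galore, hisat2 and GRCm38. The counting tool and strand setting are not given in the sources used here. The labels give polyA RNA and the methods rRNA depletion. Symbols, positions and exon lengths were taken from GENCODE for GRCm38, and 42263 of 42416 identifiers had a symbol.

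Counts were tested with edgeR 4.0.16 (robust quasi-likelihood F test, TMM scaling, 2-sided, R 4.3.3), keeping genes above 1 CPM in 5 or more libraries, with Benjamini-Hochberg adjustment over all genes tested at 0.05. The SE was the log2 fold change over the square root of F. Single values were also tested exactly over all 1287 splits into 8 and 5 (smallest p = 0.000777), on log2 CPM with a prior count of 2. Correlations used 100000 permutations. DESeq2 1.42.0 and limma 3.58.1 were alternatives. The fit was checked on simulated data. Same-group libraries differed by at least 18.4 in chi-square per degree of freedom, so none duplicated another of its group. Pairs across the groups were not examined in this way. The members, the other pathway genes and the marker lists were chosen with earlier results of these data known. Named among the other pathway genes were the 6 with the smallest unadjusted p, and P4hb was added after its values were seen. For each member, 1 most-like gene was named.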

Additional observations from a re-analysis of the deposited data

Results flagged for a closer look

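In 4 of 22 gene and group pairs examined (the 10 enzymes and Axl in both groups), the highest or lowest library lay farther from its nearest neighbour than Dixon's 95% limit allows as a share of the group's range. Chance alone marks about 1 group in 20. P4ha1 was highest in iFAXLKO replicate 5, at 181 CPM with the next library at 88.4 CPM (gap over range 0.662, limit 0.526). P4ha2 was highest in the same library, at 40.9 CPM with the next at 23.2 CPM (0.553, limit 0.526). Loxl2 was highest among the controls in WT replicate 4, at 13.2 CPM with the next at 8.68 CPM (0.749, limit 0.71). Loxl3 was lowest among the controls in WT replicate 1, at 2.26 CPM with the next at 2.77 CPM (0.742, limit 0.71). The values without these libraries were a log2 fold change of -0.84 for P4ha1, -0.37 for P4ha2, 0.64 for Loxl2 and 0.34 for Loxl3, none past an adjusted p of 0.05 by edgeR.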

How the results depend on the processing

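No enzyme passed an adjusted p of 0.05 under any of the 28 alternatives (edgeR, DESeq2 and limma-voom). Enzymes at an unadjusted p under 0.05 numbered 1, and 2 with DESeq2, limma-voom, upper quartile factors, the muscle score as a covariate or replicates 1 to 5 alone (a setting added after seeing the data), 0 with the fibroblast or collagen score as a covariate, and 1 to 3 with a library left out. Other pathway genes past the adjusted limit numbered 0, and 2 with DESeq2 (Bmp1 and Adamts14, the latter kept by the filter only through the libraries labelled iFAXLKO). Those at an unadjusted p under 0.05 numbered 6, and 1 with the fibroblast and 3 with the collagen score as a covariate (5 to 8 with a library left out). All genes past the limit numbered 17, and 67 with DESeq2, 7 among protein-coding genes, 9 with the fibroblast and 11 with the collagen score (14 to 19 with a library left out). The 1 relation with the collagen score past the limit became 0 without the 2 farthest libraries and within either range of library numbers. Both groups carry replicates 1 to 5, and a replicate block on these gave 4 enzymes at an unadjusted p under 0.05, 7 of all genes past the limit, and log2 fold changes of 0.012 for Plod1 and -0.061 for Plod2. Deviations of same-numbered libraries correlated at 0.39, 0.42, 0.19, 0.18 and -0.61. Differently numbered libraries were not compared, so these values cannot tell whether the numbers pair the samples. Fold changes that turned in sign were all among values not past the limit. Loxl2 was -0.050 with the collagen score. Plod1 was 0.012 with the fibroblast score, 0.010 with replicates 1 to 5 alone and 0.016 without WT replicate 5 (-0.077 to 0.016 with a library left out). Plod2 was -0.36 with limma-voom, -0.12 with the fibroblast score, -0.0068 with the collagen score, -0.17 without iFAXLKO replicate 5 and -0.014 without iFAXLKO replicate 7 (-0.17 to 0.29 with a library left out). Plod3 was -0.033 and Axl -0.13 with the fibroblast score, Loxl1 0.091 without WT replicate 3 (-0.21 to 0.091 with a library left out) and P4ha2 0.091 with replicates 1 to 5 alone. The causes were not tested. Depth limits Loxl3 most, at 64 to 128 reads a library.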
